A study of Caenorhabditis elegans with 4 samples.

Results

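The genes described are the 6 that encode the main proteins of the thick filament in *C. elegans* body-wall muscle: the myosin heavy chain genes unc-54 and myo-3, the paramyosin gene unc-15, and the myosin light chain genes mlc-1, mlc-2 and mlc-3. They were taken by name from a table of 14463 genes, and all 6 had a row and passed the filter on low counts. The question was how their mRNA levels in embryonic muscle cells of a mir-1 deletion mutant compare with those of wild type. miR-1 is a microRNA of muscle, and the allele luc108 removes its hairpin. The mutant strain was MLC2277, with the allele mir-1(luc108) on chromosome I, and the wild-type strain was MLC2232. Both carried the same extrachromosomal array, lucEx1207(myo-3p::YFP), in which the promoter of myo-3, itself one of the 6 genes, drives a yellow fluorescent protein. Embryos of both strains were dissociated when, by the paper's account, most but not all had reached the 1.5-fold stage. From these, 5000 YFP-positive cells were sorted into each of 2 libraries per genotype. The sort thus kept cells in which the myo-3 promoter was active, in both genotypes.

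Body-wall muscle contracts by sliding of thick filaments, built of myosin, against thin filaments of actin. A myosin molecule is a dimer of heavy chains, whose heads bind actin and whose tails pack into the filament, and each head carries a regulatory and an essential light chain. In *C. elegans* the heavy chain MHC A, encoded by myo-3, lies in the centre of the filament and is needed to start its assembly. MHC B, the product of unc-54, forms most of the length on either side and provides most of the contractile force. Paramyosin, encoded by unc-15, is a headless rod protein of the filament core. mlc-1 and mlc-2 encode nearly identical regulatory light chains, and mlc-3 encodes the essential light chain of muscle.

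In the Ensembl annotation of WBcel235, unc-54 (WBGene00006789) lies on the minus strand of chromosome I from 14855901 to 14863482, with 9 exons and a protein of 1963 residues. myo-3 (WBGene00003515) lies on the minus strand of chromosome V from 12226817 to 12234343, with 7 exons and 1969 residues. unc-15 (WBGene00006754) is on the minus strand of chromosome I from 7376604 to 7383197, with 11 exons in its longest transcript and 872 residues. mlc-3 (WBGene00003371) is on the plus strand of chromosome III from 5565025 to 5567382 and encodes 153 residues. mlc-1 (WBGene00003369), on the plus strand of chromosome X from 17459210 to 17460778, and mlc-2 (WBGene00003370), on the minus strand from 17455792 to 17456586, point away from each other across 2623 bp, and each encodes 170 residues. Since the libraries were read from the 3′ end, the last exon and 3′UTR of each gene carry its counts. These ends differ in annotated length, with a 3′UTR of 622 bp for mlc-1 and of 109 bp for mlc-2. Whether reads were shared by this pair was not tested, and their summed counts are therefore given beside the single ones. The sum covers reads split between the pair, but not reads left uncounted for both. The 3′ end of mlc-2 overlaps C36E6.2 on the opposite strand by 77 bp, and C36E6.2 had 18 and 10 UMI counts in mir-1(luc108) against 3 and 11 in wild type. mlc-2 itself had at least 506 in every library. HTSeq's strand setting is not given in the sources used here. These counts therefore do not show whether reads in the overlap were left uncounted.

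The libraries held between 245336 and 453341 UMI counts, on 10169 to 11916 detected genes. Values are normalised UMI counts (CPM), that is, counts per 1000000 over the 5111 genes kept by the filter and scaled by edgeR's TMM factors of 0.977 to 1.04. QuantSeq reads 1 site per mRNA, its 3′ end, so these levels were not divided by transcript length. Replicates differed by more than sampling noise, with a chi-square per degree of freedom of 2.38 between the mir-1(luc108) libraries and 2.11 between the wild-type libraries. Against wild-type replicates 1 and 2 it was 2.06 and 2.45 for mir-1(luc108) replicate 1. For mir-1(luc108) replicate 2 it was 3.30 and 3.05. By this measure replicate 1 of each genotype lay nearest to that of the other genotype, for wild type by a narrow gap of 2.06 against 2.11. Replicate 2 of each genotype lay nearest to replicate 1 of its own. The libraries thus grouped by genotype only in part. By Pearson correlation of log2 values, mir-1(luc108) replicate 1 lay nearest to wild-type replicate 2 instead, at 0.936 against 0.917 for wild-type replicate 1. The label of body-wall muscle was checked against its markers: the regulators hlh-1 and unc-120 were present at 37.9 CPM or more in every mir-1(luc108) library and 55.5 CPM or more in every wild-type library. Of 6 pharyngeal muscle markers, the heavy chain genes myo-1 and myo-2 were at 3.16 to 24.99 CPM in mir-1(luc108) and 0 to 41.0 CPM in wild type. The others were not near 0: tni-4, a troponin gene, was at 86.3 and 75.8 CPM in mir-1(luc108) and 51.2 and 169 CPM in wild type, and pha-4, the pharyngeal regulator, was at 90.9 and 110 CPM in mir-1(luc108) and 85.4 and 102 CPM in wild type. pha-4 was above hlh-1 in every library, and tni-4 in all but wild-type replicate 1. Over all genes, 3 of 5111 passed a false discovery rate of 0.05 in edgeR's quasi-likelihood test, 1 higher and 2 lower in mir-1(luc108).

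None of the 6 thick filament genes was called at that false discovery rate, by edgeR or by DESeq2, where 0.0587% of all genes tested were called by edgeR in either direction and 0.0391% as lower. All 6 had a log2 fold change below 0, as did 49.7% of all genes tested. Their median was −0.49, against 0.0030 over all genes tested. Both mir-1(luc108) libraries lay below both wild-type libraries for 5 of the 6, unc-54, myo-3, unc-15, mlc-1 and mlc-3, and for 18.9% of all genes tested, while the reverse held for none of the 6 and 19.5% of all genes tested. The exception was mlc-2. An unadjusted p below 0.05 was found by edgeR for 4 of the 6, unc-54, myo-3, unc-15 and mlc-3, with lower levels in mir-1(luc108) in each case. Of all genes tested, 4.58% had such a p with a lower level and 3.62% with a higher one. DESeq2 gave an unadjusted p below 0.05, with a lower level, for 4 as well. The share of all genes with such a p in DESeq2 is not given here. The DESeq2 counts, for these genes and for the lists below, thus have no background beside them. The edgeR count was smaller whenever 1 library was dropped. Such fits have less data, and the share of all genes with such a p in them is not given here. They therefore do not show whether the count rested on single libraries. The log2 fold change stayed below 0 for all 6 in these fits, in which a genotype left with 1 library takes its spread from the remaining pair. In sorted bulk cells, fewer muscle cells among those collected and less mRNA per muscle cell cannot be told apart. Whether the embryos of the genotypes differed in their mix of stages was not tested.

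unc-54 was the most abundant of the 6. It had 2967 and 2175 UMI counts in the mir-1(luc108) libraries, or 6742 and 6866 CPM, against 2347 and 3634 UMI counts, or 10019.8 and 9308 CPM, in the wild-type libraries. The groups did not overlap, and the mir-1(luc108) libraries were nearly level with each other. By raw count it was the 7th and 9th most abundant gene of the mir-1(luc108) libraries, and the 2nd and 1st of the wild-type libraries. It took 0.654% of the counts of the first mir-1(luc108) library (exact 95% binomial interval 0.631 to 0.678%) and 0.634% of the second (0.607 to 0.661%), against 0.957% (0.919 to 0.996%) and 0.855% (0.828 to 0.883%) in wild type. These intervals cover counting error only. The means were 6804 ± 88.1 CPM in mir-1(luc108) and 9664 ± 504 CPM in wild type (SD, n = 2 each). The estimated change was −29.6% (95% interval −48.6 to −3.44%), with −0.51 as log2 fold change (standard error 0.22), an edgeR adjusted p of 0.557 and an unadjusted p of 0.0313. It lay between −0.56 and −0.44 when single libraries were dropped. The 3′UTR of the YFP transgene is not given in the sources used here, and whether transgene reads were counted as unc-54 was not tested.

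**Figure D1:**
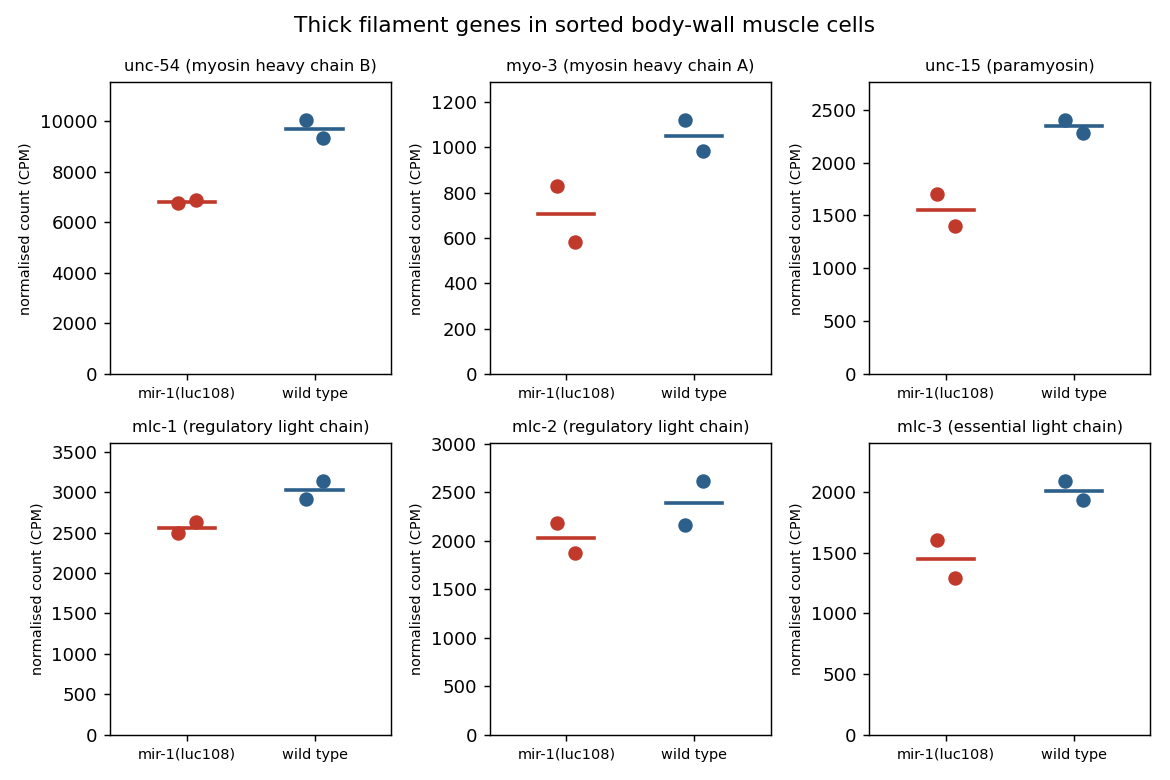
Normalised counts (CPM, linear axis from 0) of the 6 thick filament genes, with a point for each library, replicate 1 on the left of each pair, and a bar at the mean of the 2 libraries of a genotype. The mir-1(luc108) points lie below the wild-type points in every panel but that of mlc-2, where 2186 CPM in mir-1(luc108) replicate 1 exceeds 2160 CPM in wild-type replicate 1.

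myo-3, the heavy chain gene whose promoter drove the sorted reporter, had far fewer counts than unc-54. Its levels were 829 and 584 CPM in mir-1(luc108), from 365 and 185 UMI counts, against 1119 and 984 CPM in wild type, from 262 and 384 UMI counts. The groups did not overlap, but the mir-1(luc108) libraries differed between themselves, with a coefficient of variation of 24.5% where counting error alone gives 6.38%. In wild type these values were 9.08% and 5.67%. Its log2 fold change was −0.56 (standard error 0.21, edgeR adjusted p = 0.453), or −32.3% (95% interval −49.9 to −8.44%). The size rested in part on the mutant libraries: the log2 fold change was −0.34 when mir-1(luc108) replicate 2 was dropped and −0.86 when replicate 1 was, against −0.46 and −0.66 when wild-type replicates 1 and 2 were dropped in turn.

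unc-15, the paramyosin gene, had an estimated change close to those of the heavy chain genes. Its levels were 1702 and 1402 CPM in mir-1(luc108), from 749 and 444 UMI counts, against 2399 and 2285 CPM in wild type, from 562 and 892 UMI counts. The wild-type libraries differed by no more than counting error, with a coefficient of variation of 3.46% against 3.81% from counting, while in mir-1(luc108) it was 13.7% against 4.24%. The log2 fold change was −0.59 (standard error 0.20, edgeR adjusted p = 0.340), or −33.6% (95% interval −50.1 to −11.6%). It was the 111th smallest of the 5111 p-values, and its unadjusted p was 0.00745. It stayed between −0.75 and −0.46 when single libraries were dropped.

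The essential light chain gene mlc-3 had a similar pattern. Its levels were 1602 and 1291 CPM in mir-1(luc108) and 2088 and 1931 CPM in wild type, from 705 and 409 against 489 and 754 UMI counts. The groups did not overlap, and the second mir-1(luc108) library was again the lowest. The log2 fold change was −0.47 (standard error 0.20, edgeR adjusted p = 0.537), or −27.8% (95% interval −45.8 to −3.87%). When single libraries were dropped it lay between −0.65 and −0.33.

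The regulatory light chain genes had the smallest estimated changes. mlc-1 stood at 2490 and 2633 CPM in mir-1(luc108), from 1096 and 834 UMI counts, and at 2916 and 3135 CPM in wild type, from 683 and 1224 UMI counts. These groups did not overlap. Its log2 fold change was −0.24 (standard error 0.20, edgeR adjusted p = 0.829), and the 95% interval of the change ran from −36.4 to 12.5%. mlc-2 had 2186 and 1878 CPM in mir-1(luc108), from 962 and 595 UMI counts, and 2160 and 2615 CPM in wild type, from 506 and 1021 UMI counts. Its groups overlapped, and both genotypes varied more than counting error allows, at 10.7% and 13.5% in mir-1(luc108) and wild type against 3.69% and 3.84% from counting. The log2 fold change was −0.23 (standard error 0.20, edgeR adjusted p = 0.838), with a 95% interval of −36.4 to 13.8%. Single libraries moved it by more than 1.5 times: it was −0.36 and −0.13 when mir-1(luc108) replicates 1 and 2 were dropped in turn, and −0.35 and −0.092 when wild-type replicates 1 and 2 were. Counted as 1 feature, mlc-1 and mlc-2 had 4676 and 4512 CPM in mir-1(luc108) and 5075 and 5750 CPM in wild type. The groups of this sum did not overlap, and its log2 fold change was −0.24 (standard error 0.21, edgeR adjusted p = 0.840), with a 95% interval of −37.3 to 14.7%. When wild-type replicate 2 was dropped it was −0.15.

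**Figure D2:**
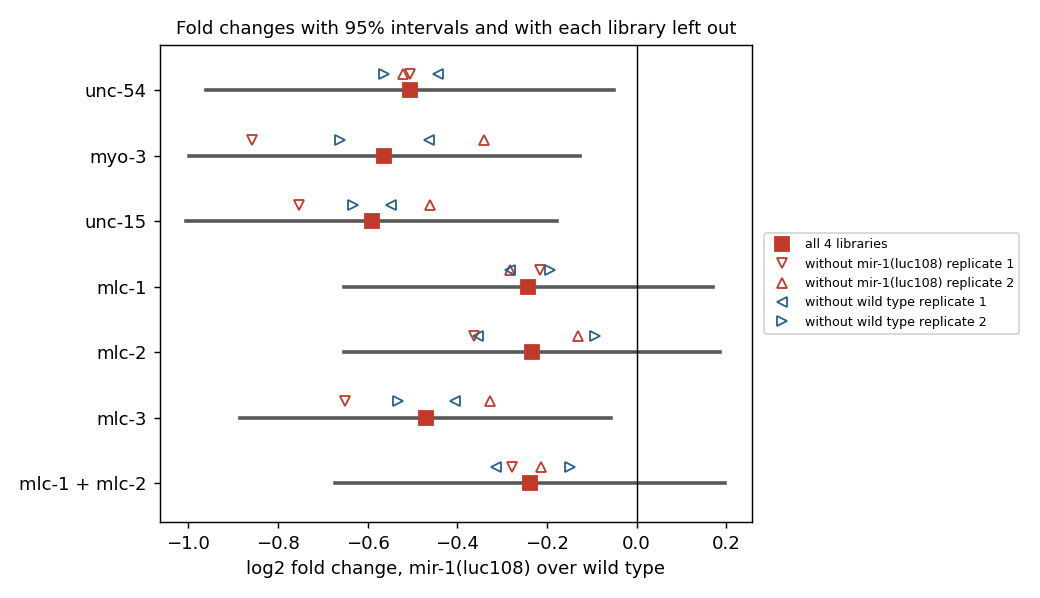
Log2 fold change of each thick filament gene, and of mlc-1 and mlc-2 summed, in mir-1(luc108) over wild type from edgeR. Squares are the estimates from all 4 libraries, lines their 95% intervals, and open triangles the estimates with 1 library left out; the intervals of unc-54, myo-3, unc-15 and mlc-3 end below 0, while those of mlc-1, mlc-2 and their sum reach 0.17, 0.19 and 0.20.

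Together the 6 genes took 1.51% (exact 95% binomial interval 1.47 to 1.55%) and 1.35% (1.31 to 1.39%) of the counts of the mir-1(luc108) libraries, against 1.98% (1.92 to 2.03%) and 1.86% (1.82 to 1.90%) in wild type. unc-54 held 43.4 and 46.9% of it in mir-1(luc108), against 48.4 and 45.9% in wild type. The genotypes overlapped for this share, as they did for myo-3 and mlc-3. unc-15 held 10.9 and 9.56% in mir-1(luc108) and 11.6 and 11.3% in wild type, without overlap. mlc-1 held 16.0 and 18.0% in mir-1(luc108), against 14.1 and 15.5% in wild type, also without overlap. mlc-2 held 14.1 and 12.8% in mir-1(luc108) and 10.4 and 12.9% in wild type, and overlapped.

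Ratios of UMI counts within a library do not depend on its depth, and were used to compare the parts of the filament. unc-54 had 8.13 and 11.8 times the counts of myo-3 in mir-1(luc108), and 8.96 and 9.46 times in wild type, so the mutant libraries lay on either side of wild type. The ratio of paramyosin to heavy chain counts was 0.225 and 0.188 in mir-1(luc108), against 0.215 and 0.222 in wild type, also with overlap. mlc-1 had 1.14 and 1.40 times the counts of mlc-2 in mir-1(luc108), against 1.35 and 1.199 times in wild type, and these overlapped too. Regulatory over essential light chain counts were 2.92 and 3.49 in mir-1(luc108), against 2.43 and 2.98 in wild type, and overlapped as well. The ratio of the 3 light chain genes to the 2 heavy chain genes was the only one of these that parted the genotypes, at 0.829 and 0.779 in mir-1(luc108) against 0.643 and 0.746 in wild type. Its mean was 15.7% higher in mir-1(luc108), and between 7.72 and 25.01% higher when single libraries were dropped, with 7.72% reached without wild-type replicate 1 and 25.01% without replicate 2. With 2 libraries against 2, the smallest two-sided p that an exact permutation test can give is 0.333, so no ratio could pass a threshold of 0.05.

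**Figure D3:**
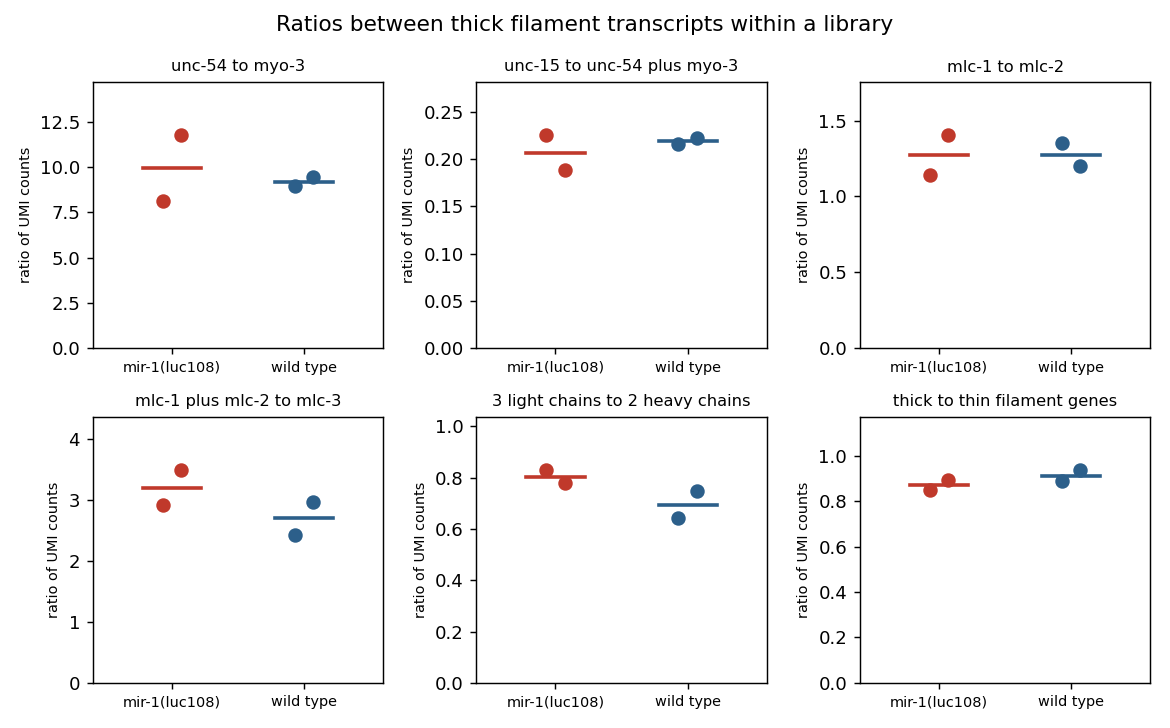
Ratios of UMI counts within each library (linear axes from 0), with points for libraries, replicate 1 on the left of each pair, and bars at the mean of 2 libraries. The panels overlap between mir-1(luc108) and wild type except that of the light to heavy chain genes, with 0.779 and more in mir-1(luc108) and 0.746 and less in wild type.

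Proteins that bind, order or fold the thick filament were given by a list of 15 genes, of which 12 passed the filter. None was called by edgeR or DESeq2, 11 of the 12 had a log2 fold change below 0 (49.7% of all genes tested), and 10 had both mir-1(luc108) libraries below both wild-type libraries (18.9% of all genes tested). At an unadjusted p below 0.05 there were 5 lower genes by edgeR (4.58% of all genes tested) and 3 by DESeq2, which tested all 15. The median log2 fold change was −0.47, beside −0.49 for the 6 filament genes. ttn-1, which encodes a titin-like protein, was at 6930 and 4568 CPM in mir-1(luc108) and 9951 and 9246 CPM in wild type (log2 fold change −0.74, standard error 0.24, edgeR adjusted p = 0.309). unc-89, the gene of the obscurin-like protein of the M-line where thick filaments are cross-linked, was at 377 and 265 CPM in mir-1(luc108) and 564 and 589 CPM in wild type (log2 fold change −0.83, standard error 0.21, edgeR adjusted p = 0.182). The myosin chaperone gene unc-45 was at 348 and 313 CPM in mir-1(luc108) and 359 and 469 CPM in wild type, and daf-21, which encodes the HSP90 that works with it, at 711 and 713 CPM in mir-1(luc108) and 790 and 743 CPM in wild type. The log2 fold changes of these chaperone genes were −0.34 (standard error 0.21) and −0.10 (standard error 0.19).

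The thin filament, against which the thick filament slides, was given by 16 genes for actins, tropomyosin, troponins and proteins of actin filament turnover, all of which passed the filter. None was called by edgeR or DESeq2, 15 had a log2 fold change below 0, and 14 had both mir-1(luc108) libraries below both wild-type libraries, where these shares were 49.7% and 18.9% over all genes tested. At an unadjusted p below 0.05 there were 5 lower genes by edgeR, against 4.58% of all genes tested, and 3 by DESeq2, and the median log2 fold change was −0.40. pat-10, which encodes the body-wall troponin C, was at 4767 and 4246 CPM in mir-1(luc108) and 5721 and 4984 CPM in wild type. The actin gene act-4 was at 4051 and 3921 CPM in mir-1(luc108) and 5473 and 4259 CPM in wild type. tni-1, a troponin I gene, and tnt-3, a troponin T gene, had log2 fold changes of −0.62 (standard error 0.20) and −0.53 (standard error 0.20). The summed counts of the 6 thick filament genes over those of the 16 thin filament genes gave ratios of 0.848 and 0.895 in mir-1(luc108), against 0.889 and 0.936 in wild type, which overlapped.

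Myosin genes outside the body-wall thick filament had changes on both sides of 0. Of 16 such genes 10 passed the filter, while DESeq2 tested 15. None was called by edgeR or DESeq2 or had an unadjusted p below 0.05 in either. Log2 fold changes were above 0 for 6 of the 10 and below 0 for 4, with a median of 0.17. The median was 0.060 when mir-1(luc108) replicate 2 was dropped and 0.021 when wild-type replicate 2 was. The genotypes did not overlap for 5 of the 10, with the mutant libraries on top for 3 of these and below for 2, against 19.5% and 18.9% of all genes tested. The nonmuscle heavy chain gene nmy-1 stood at 527 and 571 CPM in mir-1(luc108) and 555 and 604 CPM in wild type. mlc-4, which encodes the nonmuscle regulatory light chain, was at 389 and 388 CPM in mir-1(luc108) and 337 and 341 CPM in wild type, a log2 fold change of 0.20 (standard error 0.20, edgeR adjusted p = 0.887). mlc-5, an essential light chain gene, was at 300 and 313 CPM in mir-1(luc108) and 286 and 264 CPM in wild type. hum-2, which encodes an unconventional myosin, was at 68.2 and 94.7 CPM in mir-1(luc108) and 81.1 and 131 CPM in wild type. Whether the thick filament genes differed from these genes in their change was not tested.

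**Figure D4:**
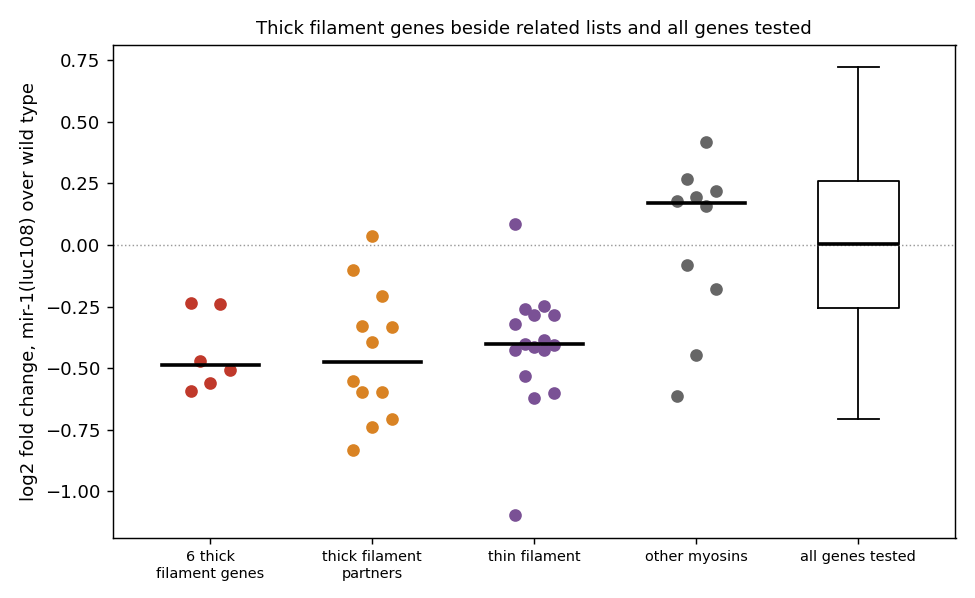
Log2 fold changes (mir-1(luc108) over wild type, edgeR) of the 6 thick filament genes, 12 partners, 16 thin filament genes and 10 other myosins tested, as points with a bar at each median, and of all 5111 genes tested as a box of the quartiles with whiskers at percentiles 5 and 95. The first 3 medians are −0.49, −0.47 and −0.40, that of the other myosins is 0.17, and the box runs from −0.26 to 0.26.

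Markers of body-wall muscle other than the 6 genes were also at lower levels in mir-1(luc108) on the whole. The list of 12, all tested, holds the regulators hlh-1 and unc-120 and genes of muscle attachment and calcium handling. Its summed level was 4478 and 3409 CPM of the whole library, without TMM scaling, in mir-1(luc108), against 5690 and 5118 CPM in wild type. The other marker sums are on the same scale. Of the 12, 11 had a log2 fold change below 0 and 8 had both mir-1(luc108) libraries below both wild-type libraries, beside 49.7% and 18.9% of all genes tested, with a median of −0.34. None was called by edgeR or DESeq2, and 5 by edgeR and 3 by DESeq2 had a lower level at an unadjusted p below 0.05, as did 4.58% of all genes tested by edgeR. The summed counts of the 6 thick filament genes were 3.37 and 3.97 times those of these markers in mir-1(luc108), against 3.47 and 3.64 times in wild type, a ratio chosen after its values were seen. Relative to these markers the genotypes thus overlapped. Of the regulators, unc-120, a muscle transcription factor gene, was at 268 and 230 CPM in mir-1(luc108) and 273 and 213 CPM in wild type. hlh-1, the MyoD homologue, was at 56.8 and 37.9 CPM in mir-1(luc108) and 55.5 and 64.0 CPM in wild type, from 12 to 25 UMI counts a library. Epidermal markers, 8 genes, summed to 1222 and 1189 CPM in mir-1(luc108) and 1202 and 1257 in wild type. Neuronal markers, 8 genes, summed to 510 and 390 in mir-1(luc108) and 342 and 398 in wild type. The most abundant of them, unc-119, was at 257 and 205 CPM in mir-1(luc108) and 145 and 136 CPM in wild type, a log2 fold change of 0.73 (standard error 0.24, edgeR unadjusted p = 0.00637, adjusted p = 0.311), and was the only neuronal marker with an unadjusted edgeR p below 0.05. Those of pharyngeal muscle, 6 genes, summed to 265 and 242 in mir-1(luc108) and 228 and 393 in wild type. Of intestinal markers, 7 genes were in the table and summed to 174 and 163 CPM in mir-1(luc108), against 85.6 and 162 in wild type, with end-1 and end-3 at 0 in 3 of 4 libraries each. Germline markers, 5 genes, summed to 24.3 and 23.3 in mir-1(luc108) and 20.4 and 14.1 in wild type. The part of the sorted cells' make-up in the levels of the 6 genes was not tested.

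The 6 genes differed in how near they lay to their average profile over the 4 libraries. Around each gene's own mean, the average log2 level of the 6 was −0.12 and −0.32 in the mir-1(luc108) libraries and 0.23 and 0.21 in the wild-type libraries. This average includes each gene itself. mlc-3 lay closest to it, at a root mean square distance of 0.055, followed by unc-15 at 0.086 and unc-54 at 0.092. myo-3, mlc-2 and mlc-1 lay farthest from it, at 0.14, 0.15 and 0.15. mlc-2 stood at −0.0057 and −0.22 in mir-1(luc108) and −0.023 and 0.25 in wild type, and mlc-1 at −0.16 and −0.080 in mir-1(luc108) and 0.068 and 0.17 in wild type. Unlike the average, mlc-2 was thus near its own mean in replicate 1 of both genotypes. Also unlike the average, mlc-1 was lowest in mir-1(luc108) replicate 1. So was unc-54, at −0.27 there and −0.24 in mir-1(luc108) replicate 2. Among 555 other genes with a mean of at least 100 UMI counts a library, the 5 most like the average were C46G7.2 at 0.055, far-1, which encodes a fatty acid and retinol binding protein, at 0.057, deb-1, the vinculin gene of muscle dense bodies, at 0.058, unc-97, which encodes an attachment protein with LIM domains, at 0.063, and unc-27, a troponin I gene, at 0.064. This likeness rests on 4 libraries that also differ in depth, and is a description only. deb-1 is also among the body-wall muscle markers above, unc-97 among the thick filament partners and unc-27 among the thin filament genes. far-1 was at 3815 and 3252 CPM in mir-1(luc108), against 5285 and 4874 CPM in wild type, and none of the 5 was called by edgeR.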

How the data were processed

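The deposited values were UMI counts per gene from QuantSeq FWD 3′ libraries. In their processing the authors used UMI-tools to handle molecular identifiers, STAR to align trimmed reads to WBcel235 and HTSeq to count genes, and the deposited counts are not normalised; versions, the annotation and HTSeq's strand setting are not given in the sources used here. Genotypes came from the sample titles, with 2 libraries each. Counts were tested with edgeR 4.0.16 in R 4.3.3 (TMM, filterByExpr with a minimum count of 10, quasi-likelihood F-test, Benjamini-Hochberg adjustment over all genes tested), a script checked on simulated counts. Intervals of fold changes were computed from these standard errors and are not adjusted. DESeq2 1.42.0 was an alternative, as were other scalings, no filter, a replicate block, a transcript length trend (loess, span 0.5) and leaving out each library.

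Lists were described by counts and medians. Named were all 6 genes, the 4 most abundant of each related list and the 5 genes of most like profile; unc-120 and hlh-1 are named as markers. The genes and lists were chosen with earlier results of these data known. For gene positions, Ensembl release 115 was used, with 13203 of 14463 genes (91.3%) matched. No sequence was used.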

Additional observations from a re-analysis of the deposited data

How the results depend on the processing

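All 6 thick filament genes kept a log2 fold change below 0 under every alternative run. Genes called over the whole table, 1 higher and 2 lower, became 2 higher and 3 lower with size factors from median ratios, 2 higher and 2 lower with library sizes taken without the 6 genes, 1 higher and 1 lower with library totals alone, 27 higher and 36 lower with no filter, and 0 higher and 1 lower with DESeq2. Left out in turn, mir-1(luc108) replicates 1 and 2 gave 0 and 14 higher and 0 and 1 lower, and wild-type replicates 1 and 2 gave 17 and 0 higher and 49 and 0 lower. The replicate numbers pair nothing in the labels, and deviations of same-numbered libraries correlated at −0.0027 over genes. With the replicate number as a block, 28 genes were higher and 59 lower, and 4 thick filament genes were called: unc-54 (log2 fold change −0.51, edgeR adjusted p = 9.87e-05), myo-3 (−0.59, 0.0122), unc-15 (−0.60, 0.000733) and mlc-3 (−0.48, 0.0106). The block leaves fewer residual degrees of freedom. The standard error of unc-54 was nonetheless smaller with it, at 0.075 against 0.22 without, and why it fell was not tested. The share of all genes at an unadjusted p below 0.05 is not given for the block. In every other alternative with a test none of the 6 was called, and their edgeR or DESeq2 adjusted p reached 0.997 or more for each.

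The median log2 fold change of the 6 ran from −0.58 to −0.33 with libraries left out and was −0.41 after the length trend was subtracted. The number with an unadjusted p below 0.05 was smaller with any library left out, in fits with less data. It was 6 with the block and stayed at 4 in the other fits with a test. Medians of the other lists ran, with libraries left out, from −0.61 to −0.38 for thick filament partners, from −0.49 to −0.32 for the thin filament and from 0.021 to 0.21 for other myosins, which stood at 0.088 after the length trend. Percent differences of ratios, mir-1(luc108) over wild type, changed sign in this way for unc-54 to myo-3 (7.95%, from −11.7 to 27.6%), paramyosin to heavy chains (−5.60%, from −13.98 to 2.78%), mlc-1 to mlc-2 (−0.300%, from −10.6 to 9.995%) and the 6 genes to muscle markers (3.22%, from −5.16 to 11.6%), and ran from 7.72 to 25.01% for light to heavy chains. That of the joint share of counts ran from −29.5 to −21.3%. The causes were not tested. The fewest counts among the 6 were those of myo-3, whose coefficient of variation from counting, over the mir-1(luc108) pair, was 6.38%.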

Other observations

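Some muscle genes of low counts differed widely between the wild-type libraries, which held 245336 and 424968 UMI counts in all. The UMI counts below are not scaled for this depth. In CPM the wild-type libraries stood at 51.2 and 169 for tni-4 and at 85.4 and 102 for pha-4. myo-2 had 11 and 2 UMI counts in mir-1(luc108) and 0 and 13 in wild type, and myo-1 had 6 and 1 in mir-1(luc108) and 1 and 16 in wild type. myo-5 had 10 and 1 UMI counts in mir-1(luc108) and 4 and 27 in wild type. The troponin genes tni-4, with 38 and 24 UMI counts in mir-1(luc108) and 12 and 66 in wild type, and tnt-4, with 12 and 10 in mir-1(luc108) and 5 and 25 in wild type, were likewise highest in the second wild-type library. The other markers of pharyngeal muscle were not: ceh-22 had 13 and 11 UMI counts in mir-1(luc108) and 18 and 7 in wild type, and pha-4 had 40 and 35 in mir-1(luc108) and 20 and 40 in wild type. None of the 6 thick filament genes but mlc-2 and mlc-1 was higher in CPM in that library than in the first of its genotype. These genes were singled out after their values were seen.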
